A study of Mus musculus with 4 samples.

Results

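The genes described here form the chaperone and degradation arm of the unfolded protein response of the endoplasmic reticulum (ER), read in livers of mice with and without neuregulin 4 (Nrg4). They were 10 listed genes: the folding genes Hspa5, Hsp90b1, Pdia4, Dnajb9 and Sdf2l1, the ER-associated degradation (ERAD) genes Herpud1, Edem1, Sel1l and Syvn1, and the transcription factor gene Xbp1. A gene was read from the probe set that the platform annotation pairs with its symbol alone, and from the brighter one where there were several. Of the 10, 9 had such a probe set, among 22180 genes on the array. Pdia4 had none, because its probe set carries 2 symbols, so it has no value here. All 9 were bright enough to be tested, among 12458 tested genes.

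RNA came from livers of male mice, wild type (WT) or Nrg4 knockout (KO), that ate a diet producing non-alcoholic steatohepatitis (NASH). Feeding began at 3 months of age and lasted 20 weeks, and tissue was taken from fed animals. Each Affymetrix Mouse Gene ST 2.1 array held 1 pool of liver RNA, with 2 pools of each genotype. Every pool is from NASH-diet livers, so no comparison with healthy liver is possible here, and the sources used here do not give the number of animals in a pool or the make-up of the Nrg4 allele. The comparison addresses how loss of Nrg4, which encodes an EGF-like hormone that acts through ErbB receptors, bears on liver gene expression under this diet.

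Proteins bound for secretion fold in the ER, and the hepatocyte is among the busiest secretory cells of the body. When unfolded proteins build up, the sensors IRE1, ATF6 and PERK start the unfolded protein response. IRE1 splices Xbp1 mRNA into the form that encodes an active factor, while ATF6 is cut in the Golgi to release another. Both factors switch on chaperones and the ERAD machinery, which pulls misfolded proteins back to the cytosol for destruction. In cultured cells, Dnajb9 and Edem1 are known to rely mainly on XBP1, and Hspa5 and Hsp90b1 mainly on ATF6.

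The targeted gene was read first, as a check of the labels. Nrg4 stood at 2.54 and 2.30 in the WT pools and at 0.93 in both KO pools, on the deposited log2 scale. The KO minus WT difference was -1.49 ± 0.20 (SE; limma, adjusted p = 0.181), and KO pools stood 0.39 above the array-wide median. Over the tested genes, pools of 1 genotype correlated at 0.979 (WT) and 0.975 (KO), and pools of different genotypes at 0.966 to 0.973. Such correlations run across genes and do not count as replicates.

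The promoters of several members hold the letters that these factors are known to recognise, and they are shown because the genes are grouped by that control. RefSeq promoter windows (GRCm38.p6) of 300 bases, from 250 before the annotated start to 50 after it, were matched by symbol for all 10 members and searched on both strands. The start used for Edem1 lies 4596 bases inside its RefSeq gene record, and those of the other 9 at the edge of theirs, so a start further upstream of Edem1 was not searched. The ER stress response element (ERSE), CCAAT and CCACG with any 9 bases between them, was in the windows of Hspa5, Hsp90b1 and Syvn1, against 0.119% of all 32851 windows. With the second part shortened to CCAC, which takes in the first form, it was in 5 member windows, adding Pdia4 and Herpud1, against 0.365% of all windows. The second form, ERSE-II, ATTGG and CCACG with any 1 base between them, was in the window of Herpud1 (0.0365% of all windows), and the XBP1 core TGACGTG in that of Hspa5 (2.01%). No match to any of these motifs was found in the windows of Dnajb9, Sdf2l1, Edem1, Sel1l and Xbp1, which says only that these letters are not in that stretch. Below, 5′ to 3′ in the direction of the gene, the fixed letters of ERSE or ERSE-II are in capitals. The stretches are Hspa5 from 110 to 1 bases before its start (chr2:34771980-34772089, plus strand), Hsp90b1 from 220 to 81 (chr10:86705525-86705664, minus strand), and Syvn1 from 100 to 1 (chr19:6046476-6046575, plus strand). Herpud1 is shown from 100 to 1 (chr8:94386329-94386428, plus strand), and Dnajb9, which had the largest difference, from 130 to 1 (chr12:44210069-44210198, minus strand).
Hspa5: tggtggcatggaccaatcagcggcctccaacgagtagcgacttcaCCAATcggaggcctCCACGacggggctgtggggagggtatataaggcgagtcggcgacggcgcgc
Hsp90b1: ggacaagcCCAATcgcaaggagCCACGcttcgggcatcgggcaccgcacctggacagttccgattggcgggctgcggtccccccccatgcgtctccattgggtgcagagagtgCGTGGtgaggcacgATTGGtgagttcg
Syvn1: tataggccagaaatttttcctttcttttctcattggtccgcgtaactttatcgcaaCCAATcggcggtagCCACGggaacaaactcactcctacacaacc
Herpud1: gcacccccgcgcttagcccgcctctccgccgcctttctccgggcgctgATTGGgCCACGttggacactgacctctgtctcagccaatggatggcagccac
Dnajb9: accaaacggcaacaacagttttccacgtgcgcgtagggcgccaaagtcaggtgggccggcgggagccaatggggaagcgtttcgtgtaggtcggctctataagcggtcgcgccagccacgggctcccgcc
Hsp90b1 shows 2 elements in opposite orientation, Hspa5 and Syvn1 1 each close to the start, and Dnajb9 none.

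**Figure D1:**
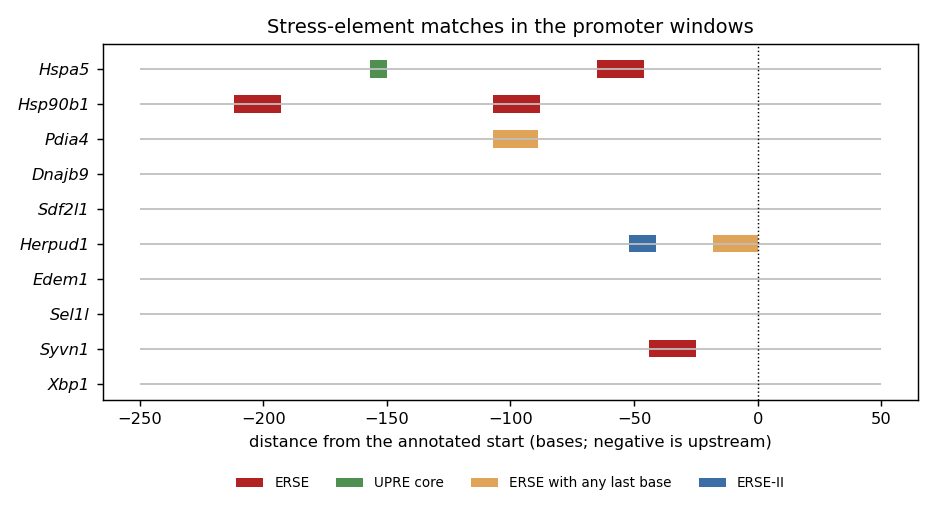
Positions of motif matches in the promoter windows of the 10 genes, in bases from the annotated start (dotted line), with a colour for each motif and the looser ERSE drawn only where the strict one is absent. Matches lie in the windows of Hspa5, Hsp90b1, Pdia4, Herpud1 and Syvn1, and the other windows are empty.

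Among the folding genes, Dnajb9 had the largest difference between genotypes, while the chaperones Hspa5 and Hsp90b1 differed by 0.13 and 0.12. Dnajb9 encodes a J-domain co-chaperone of the HSPA5 protein that also holds IRE1 in check. It stood at 6.53 and 6.43 in the WT pools and at 5.55 and 5.81 in the KO pools. Both KO pools lay below both WT pools, with a gap of 0.62 between the groups against at most 0.25 between pools of 1 genotype. The difference was -0.80 ± 0.20 (SE, n = 2 pools each; 95% interval -1.30 to -0.29), a level 1.74-fold lower in KO. It did not pass over all genes (limma, adjusted p = 0.326), and 1.93% of tested genes had a lower difference.

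Sdf2l1, a small ER protein that works with the HSPA5 chaperone system, was at 3.04 and 3.08 in WT and at 2.66 and 2.68 in KO. Its pools lay close together, within 0.04 in each genotype. The difference was -0.39 ± 0.19 (SE; 95% interval -0.86 to 0.07; limma, adjusted p = 0.558), or 1.31-fold lower in KO. Hspa5, the ER HSP70 known as BiP, was at 5.63 and 5.69 in WT and at 5.45 and 5.61 in KO. The genotypes were 0.02 apart at their nearest, less than the 0.15 between the KO pools. The difference was -0.13 ± 0.19 (SE; 95% interval -0.60 to 0.35; limma, adjusted p = 0.863). Hsp90b1, the ER HSP90 known as GRP94, was at 8.79 and 8.71 in WT and at 8.62 and 8.63 in KO. Its difference was -0.12 ± 0.19 (SE; 95% interval -0.59 to 0.34; limma, adjusted p = 0.863). For both chaperones the interval spans 0 and still allows a level about 1.5-fold lower in KO (1.52 for Hspa5 and 1.50 for Hsp90b1). The interval of Dnajb9 overlaps theirs, and the difference between these members was not tested.

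The ERAD genes were lower in the KO pools by 0.22 to 0.50 on the log2 scale. Herpud1, a membrane protein that helps assemble the HRD1 ligase complex, was at 8.70 and 8.68 in WT and at 8.13 and 8.26 in KO. The groups were 0.43 apart and the pools within a group at most 0.13. Its difference was -0.50 ± 0.19 (SE; 95% interval -0.97 to -0.03), or 1.42-fold lower in KO, with an unadjusted p of 0.0406 by limma over all genes and an adjusted p of 0.463. Edem1, which hands misfolded glycoproteins to degradation, was at 6.37 and 6.30 in WT and at 5.71 and 6.01 in KO. The KO pools were 0.30 apart, about as far as the groups were from each other (0.29). The difference was -0.47 ± 0.21 (SE; limma, adjusted p = 0.522). A second, dim probe set of Edem1, 0.30 above the table median, gave -0.22.

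Sel1l, the adaptor that links substrates to the HRD1 ligase, was at 6.57 and 6.52 in WT and at 6.13 in both KO pools. Its difference of -0.41 ± 0.19 (SE; 95% interval -0.88 to 0.05; limma, adjusted p = 0.539) came with pools no more than 0.05 apart. Syvn1, which encodes the HRD1 ubiquitin ligase itself, was at 3.91 and 4.15 in WT and at 3.71 and 3.90 in KO. The nearest pools of the 2 genotypes differed by 0.01, and the WT pools by 0.24. The difference was -0.22 ± 0.21 (SE; limma, adjusted p = 0.768). So Herpud1 and Sel1l had tight pools and a clear gap, Edem1 a wide spread in KO, and Syvn1 almost no gap.

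Xbp1 itself showed the smallest difference of the 9 genes. It was at 6.51 and 6.68 in WT and at 6.49 in both KO pools, so the genotypes were 0.01 apart at their nearest. The difference was -0.10 ± 0.19 (SE; 95% interval -0.58 to 0.38; limma, adjusted p = 0.896). The value is for the whole transcript, and the spliced form that encodes the active factor was not measured apart from the unspliced one. Xbp1 is also on the plasma and B cell marker list.

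**Figure D2:**
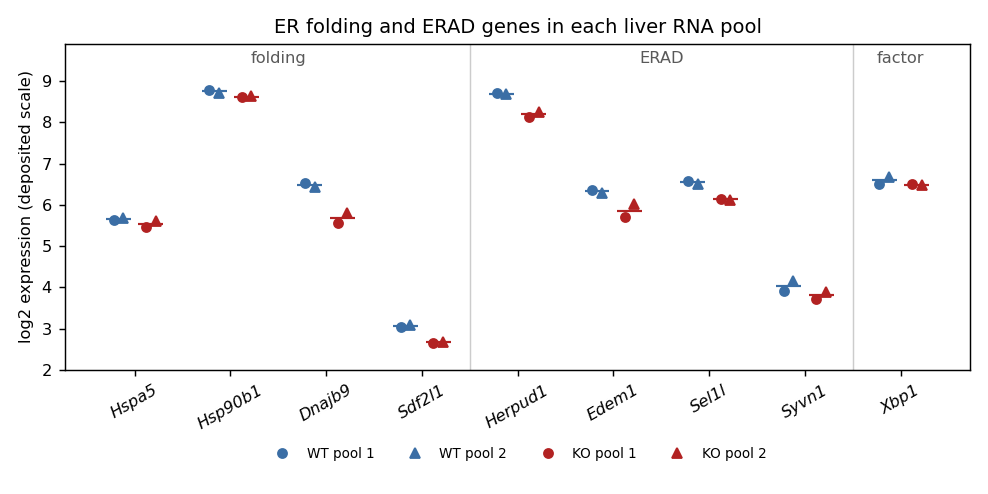
Log2 expression of the 9 genes in each of the 4 pools, with circles for pool 1, triangles for pool 2 and a line at the mean of each genotype. The KO pools lie below the WT pools for every gene, with the widest gap in Dnajb9 (0.62) and almost none in Xbp1 and Syvn1 (0.01).

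Read together, all 9 genes had a KO mean below the WT mean, where 48.4% of tested genes did. In all 9 the KO pools lay below both WT pools, against 19.5% of tested genes. The median difference was -0.39, beside 0.01 over all tested genes. No member passed the adjusted threshold of 0.05 by limma, a threshold that 0.0482% of tested genes passed. At an unadjusted p under 0.05 there were 2 members, Dnajb9 and Herpud1, against 3.92% of tested genes that were lower in KO by that rule. In limma with a variance trend on intensity, these same 2 genes were called (adjusted p = 0.0418 for Dnajb9 and 0.0379 for Herpud1), beside 0.698% of tested genes called lower. The design holds 2 pools against 2, so an exact two-sided permutation test of a single gene cannot go below 0.333. The p-values measure the spread between pools, not between animals.

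The difference was over the larger spread between pools of a genotype in 6 of the 9 genes, and not in Hspa5, Syvn1 and Xbp1. The mean of the 9 genes was 6.23 and 6.25 in the WT pools, 5.83 in KO pool 1 and 5.95 in KO pool 2. Because the KO pools lay below both WT pools in all 9 genes, leaving out 1 pool could not change the sign of a difference. With 1 pool left out at a time, the median ran from -0.41 to -0.32. Dnajb9 then lay between -0.92 and -0.67, Herpud1 between -0.57 and -0.44, and Sel1l between -0.44 and -0.39. Edem1 moved more, from -0.62 to -0.32. The genes with small differences moved most in proportion, Hspa5 from -0.20 to -0.05, Syvn1 from -0.34 to -0.10 and Xbp1 from -0.19 to -0.02.

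**Figure D3:**
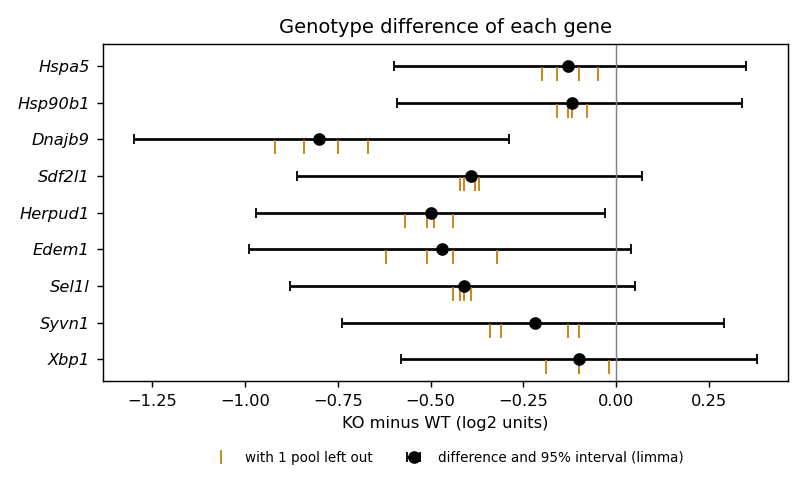
KO minus WT difference of each gene in log2 units, as a point with its 95% limma interval, and short orange ticks for the differences with 1 pool left out. All points lie below 0, and the intervals of Dnajb9 (-1.30 to -0.29) and Herpud1 (-0.97 to -0.03) do not reach 0.

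Most other genes of the ER folding machinery also had differences below 0. For the lists that follow, unadjusted p-values under 0.05 are read against 3.92% of tested genes that were lower and 6.37% that were higher by that rule, so 1 or 2 genes in a list of this size are near the background. Of 26 tested chaperones and folding enzymes outside the members, 22 had a difference below 0 and 4 above, with a median of -0.21. None passed the adjusted threshold by limma, and 1 had an unadjusted p under 0.05. That was Ero1b, an oxidase that feeds disulfide bonds to the protein disulfide isomerases, at 5.37 and 5.12 in WT and 4.59 and 4.66 in KO. Its difference was -0.63 ± 0.20 (SE; limma, adjusted p = 0.399). Pdia3, a disulfide isomerase for glycoproteins, was at 7.72 and 7.63 in WT and 7.01 and 7.39 in KO, a difference of -0.48 ± 0.22 (SE; limma, adjusted p = 0.545).

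Of 24 other tested ERAD factors, 19 had a difference below 0 and 5 above, with a median of -0.13. None passed by limma, and 2 had an unadjusted p under 0.05. Marchf6, a ligase of the ER membrane, was at 6.61 and 6.73 in WT and 6.12 and 6.17 in KO, a difference of -0.53 ± 0.19 (SE; limma, adjusted p = 0.440). Derl2, a derlin of the HRD1 complex, was at 4.22 and 4.18 in WT and 3.74 and 3.62 in KO, a difference of -0.52 ± 0.19 (SE; limma, adjusted p = 0.445). Both genes had KO pools clear of the WT pools by 0.44.

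Genes of earlier and later steps of the secretory path also mostly had differences below 0. Genes of ER entry and N-glycosylation had 26 of 30 tested members below 0 and a median of -0.14, with 1 gene at an unadjusted p under 0.05 and none called by limma. That gene, Sec61b, a subunit of the translocon, was at -0.60 ± 0.22 (SE; limma, adjusted p = 0.462), and stood 0.33 above the table median in KO, where differences may be compressed. Sec63, which works with HSPA5 at the translocon, was at -0.47 ± 0.22. ER to Golgi transport genes had 23 of 29 below 0 and a median of -0.06, with no member at an unadjusted p under 0.05. In that list Mia3, a cargo receptor for large proteins, was at -0.55 ± 0.24 and Sec13, a coat subunit, at 0.40 ± 0.22 (SE).

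The list of sensors, and of the proteases and ligase that process their signals, also holds the Creb3 family, Tmbim6 and Traf2. It had 9 of 13 genes below 0 and a median of -0.07. That median was between -0.11 and 0.03 with 1 pool left out, so its direction depends on the pools. None was called by limma and 1 had an unadjusted p under 0.05. It was Mbtps2, the protease that makes the second cut in ATF6, at 2.71 and 2.75 in WT and 3.16 and 3.27 in KO, a difference of 0.48 ± 0.19 (SE; limma, adjusted p = 0.481). Rtcb, the ligase that joins the spliced Xbp1 ends, was at 0.35 ± 0.22 (SE; limma, adjusted p = 0.646). The values of Mbtps2 and Rtcb stood above 0 in the pools where the 9 members stood below it. Of the sensor genes, Atf6 (-0.33), Atf6b (-0.06) and Ern1, the gene of IRE1 (-0.11), were below 0. Eif2ak3, the gene of PERK, was above it (0.13).

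The PERK and ATF4 arm, the other branch of the response, had 18 of 25 tested genes below 0 and a median of -0.18. Differences ran from -0.83 for Trib3 to 0.81 for Vldlr, with Atf4 itself at 0.21. With a stricter filter on dim genes the median was -0.02. None was called by limma and 1, Trib3, had an unadjusted p under 0.05. Trib3, a pseudokinase, was at 1.38 and 2.03 in WT and 1.07 and 0.67 in KO (-0.83 ± 0.29 SE; limma, adjusted p = 0.434). Asns, the asparagine synthetase, was at -0.71 ± 0.31 (SE; limma, adjusted p = 0.517), and both genes are dim in KO, 0.33 and 0.54 above the table median.

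Chaperones outside the ER also stood mostly below 0, and the 2 with the smallest p had larger differences than any of the 9 members. Of 22 tested cytosolic and mitochondrial chaperones, 18 had a difference below 0, with a median of -0.14. None was called by limma and 2 had an unadjusted p under 0.05. Hspa1b, the inducible cytosolic HSP70, was at 5.11 and 5.08 in WT and 4.18 and 3.88 in KO. Its difference was -1.07 ± 0.21 (SE; limma, adjusted p = 0.268, or 0.0427 with a variance that follows intensity), 2.10-fold lower in KO. The near-identical copy Hspa1a, on a probe set of its own, was at 0.04 ± 0.25 (SE; limma, adjusted p = 0.967), so the values of the copies part, and arrays separate such copies with uncertainty. Hsph1, an HSP110 that recharges HSP70, was at 4.32 and 4.61 in WT and 3.40 and 3.71 in KO, a difference of -0.91 ± 0.22 (SE; limma, adjusted p = 0.312).

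**Figure D4:**
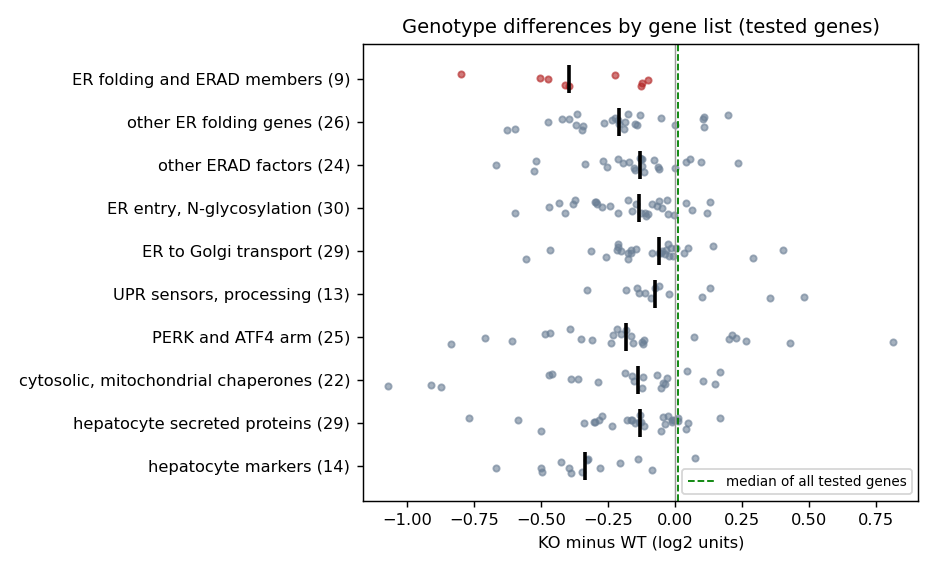
KO minus WT differences in log2 units of every tested gene in 10 lists, with the number of genes in brackets, a black bar at the list median and a dashed line at the median of all tested genes. The member median (-0.39) and the hepatocyte marker median (-0.34) lie furthest below 0, and the ER to Golgi list stays near it (-0.06).

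Genes that share the strict ERSE in a promoter window were read as a further list, found by sequence and not by expression. Of 37 such genes 17 were tested, of which 3 are the members Hspa5, Hsp90b1 and Syvn1. Of the other 14, 11 had a difference below 0, with a median of -0.20 and a range of -0.63 to 0.71. This list overlaps those above. Calr, Canx, Pdia6, Ero1b, Dnajc3 and Creld2 are also counted among the other folding genes, and Derl3 among the other ERAD factors. All of those were below 0. The genes above 0 were Spats2l, Acnat2 (0.31) and Pan2 (0.22), which are on no other list. Also on no other list, Hnrnpa3 (-0.13), Acacb (-0.30), Alg12 (-0.27) and Xlr3a (-0.43) were below 0, so the genes outside the other lists went both ways. Ero1b was the lowest, and Spats2l, chosen with it as the smallest p of the list, was at 0.71 ± 0.21 (SE; limma, adjusted p = 0.379). The 3 members with the strict element were at -0.12 to -0.22. Members without a match to any of the motifs ran from -0.80 for Dnajb9 to -0.10 for Xbp1, the largest and smallest differences of the 9. A link between element and difference was not tested.

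Cell type markers also differed between the pools. In bulk liver RNA, fewer cells of a type and less RNA per cell cannot be told apart. Of 18 hepatocyte markers 14 were tested, none of the measured ones was too dim, and 13 had a difference below 0, with a median of -0.34. Their mean log2 level was 7.70 and 7.72 in WT and 7.30 and 7.48 in KO, and their summed linear level was 5500 to 5650 in WT and 4390 to 4670 in KO. Relative to the WT mean, the hepatocyte markers were at -0.41 in KO pool 1 and -0.23 in KO pool 2, and the 9 members at -0.41 and -0.29. Genes for hepatocyte secreted proteins, the cargo of this ER, had 24 of 29 tested genes below 0 and a median of -0.13, with Fetub at -0.59 ± 0.20 and Kng1 at -0.77 ± 0.29 (SE; limma, adjusted p = 0.423 and 0.463). Without KO pool 1 that median was -0.04.

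Of the other cell types, fibroblast, macrophage and cholangiocyte marker lists stood higher in KO, and plasma and B cell markers differed in direction. Fibroblast and stellate markers had 10 of 12 genes above 0 (median 0.79, summed linear level 374 to 416 in WT and 527 to 606 in KO). Macrophage markers had 11 of 14 above 0 (median 0.35, summed level 384 to 395 in WT and 478 to 504 in KO). The largest difference on the macrophage list went the other way, Marco at -2.37 ± 0.33 (SE, limma, adjusted p = 0.181). Cholangiocyte markers had 4 of 5 tested genes above 0 (median 0.71). Plasma and B cells, which also carry much ER, had 3 of 8 tested markers above 0, a median of -0.06 and summed levels of 118 to 133 in WT and 118 to 121 in KO. Most of that sum is the member Xbp1 (91 and 102 in WT, 90.1 and 89.9 in KO), so it says little of the other markers. Derl3 is likewise counted among the other ERAD factors. Within the plasma and B cell list the mean log2 level was 2.07 and 2.17 in WT and 2.31 and 2.18 in KO. Differences ran from -0.39 for Sdc1 to 1.19 for Jchain, with Cd79a at 0.52, Cd79b at -0.16 and Derl3 at -0.15. Jchain and Cd79a had an unadjusted p under 0.05 by limma, where 6.37% of tested genes were higher by that rule. None passed the adjusted threshold, and 3 of the 11 measured markers were too dim to test. The part of cell makeup in the member differences was not tested.

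With each array centred on the mean of the 14 hepatocyte markers, a scaling chosen after the data were seen, a value is a difference relative to those markers. The scaling adds nearly 1 constant to every gene, 0.32 at the median of all tested genes, so any gene that was less than that below 0 has to take the other sign. Dnajb9 was at -0.47 (limma, unadjusted p = 0.0535, adjusted p = 0.234), with Herpud1 at -0.18, Edem1 at -0.15, Sel1l at -0.09 and Sdf2l1 at -0.07. As deposited, Dnajb9 was at -0.80 with a smaller unadjusted p of 0.00862 by limma. Adjusted p-values cannot be compared between these scalings, because the shift changes the p-values of all tested genes. Hspa5 and Hsp90b1 were both at 0.20, Xbp1 at 0.22 and Syvn1 at 0.10, so those 4 lay less far below WT than the mean of the hepatocyte markers, a difference not tested beyond that fit. In this scaling 5 of 9 members were below 0, where 14.7% of tested genes were, and 3 had KO pools clear of and below WT, where 4.30% of tested genes did. The member median was -0.07 and the median of all tested genes 0.34. Quantile normalization left all 9 at or below 0, with Dnajb9 at -0.71 and Xbp1 at 0.00, and 7 members had KO pools clear of and below WT, against 20.2% of tested genes. Centring on array medians left all 9 below 0, with Dnajb9 at -0.84.

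**Figure D5:**
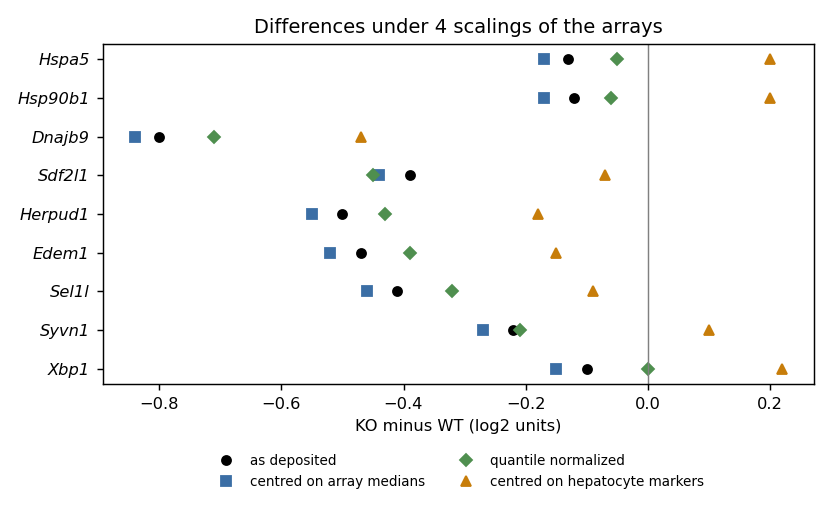
KO minus WT difference of each gene in log2 units under 4 scalings of the arrays, marked by shape and colour. Centring on hepatocyte markers moves every gene up by nearly the same amount, which puts Hspa5, Hsp90b1, Syvn1 and Xbp1 above 0, and Dnajb9 is lowest under each scaling.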

How the data were processed

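Liver RNA pools (2 WT, 2 Nrg4 KO) were measured on Affymetrix arrays after biotin labelling of 400 ng of total RNA, per the labels' protocols. The values are log2 expression as deposited by the authors; oligo, RMA and limma are named per the submitters' processing notes, while the sources used here give no version, order or build. The zero point of the scale is unknown (array medians 0.52 to 0.64, values -1.12 to 11.9), so levels are compared within a gene only, and array number limits precision. No batch information was used here.

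Of 41345 probe sets, 23521 had 1 symbol, 1814 several and 16010 none in the platform annotation. The brightest single-symbol probe set was kept per gene. Entrez identifiers of 23328 were in the RefSeq table (GRCm38.p6); list symbols missing from the annotation were looked up there, which placed Sars1 (as Sars). Genes whose mean reached the median over probe sets (0.54) were tested by limma 3.58.1 in R 4.3.3 (lmFit, eBayes; 2 residual and 3.67 prior degrees of freedom; Benjamini-Hochberg over all 12458 genes), a procedure tested on simulated data.

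Members and lists were chosen with earlier results of these data known, so lists are described by counts and medians with no p. Named genes are all members, Nrg4, and the 2 genes of smallest p in each companion list. Marker lists are given by counts. Cd79b, Derl3, Sdc1, Marco, Hspa1a, Vldlr, Atf4, Atf6, Atf6b, Ern1 and Eif2ak3 were named after their values were seen. So were the ERSE genes Calr, Canx, Pdia6, Dnajc3, Creld2, Acnat2, Pan2, Hnrnpa3, Acacb, Alg12 and Xlr3a. Lists of cholangiocyte, endothelial, T and NK cell, neutrophil, pancreatic acinar and erythroid markers had medians of 0.71 (5 tested), 0.07 (9), 0.17 (8), 0.15 (1), -0.01 (3) and -0.07 (1). Alternatives were other scalings, filters, probe set and variance rules, a replicate block, and leaving out each pool.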

Additional observations from a re-analysis of the deposited data

How the results depend on the processing

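Of 117 alternative values for single members (9 genes, 13 settings), 111 kept their direction and side of the threshold. For direction, most of these could not have come out otherwise. Variance rules, block and filters leave a difference as it is, and leaving out 1 pool cannot change its sign where pools do not overlap. Direction could change only with other scalings. Both probe sets of Edem1 had a difference below 0 (-0.47 and -0.22), so their mean had to be below 0 too. Dnajb9 (adjusted p = 0.0418) and Herpud1 (0.0379) passed with a variance trend, which called 2 members and 136 genes in all, against 0 and 6. The others were Hspa5 (0.20), Hsp90b1 (0.20), Xbp1 (0.22) and Syvn1 (0.10), which took the other sign when arrays were centred on hepatocyte markers, a shift of about 0.32 for all genes; there 5 members were lower, 3 had separate pools and the median was -0.07. The median was -0.32 with quantile normalization and -0.41 to -0.32 with 1 pool left out, where 0 of 9 members and 0 genes in all were called by limma, with 906 to 1314 genes at an unadjusted p under 0.05. With the pool number as a replicate block 2 genes and 0 members were called by limma, 1 member having an unadjusted p under 0.05, and Dnajb9 was at an adjusted p of 0.400. Deviations of same-numbered pools correlated at -0.0368 across genes, so no shift shared by them was seen. Whether same-numbered pools were handled together cannot be told from that value, and the labels give only a replicate number. As the mean of its probe sets Edem1 was at -0.35.

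Medians of companion lists moved with the scaling. With quantile normalization they were -0.14 for other ER folding genes, -0.09 for other ERAD factors, -0.07 for ER entry, -0.09 for other chaperones and -0.13 for ERSE genes. With arrays centred on their medians they were -0.26, -0.18, -0.18, -0.18 and -0.24, and -0.11 for ER to Golgi transport and -0.12 for the sensors. With no filter on dim genes the ERSE median was -0.15. With a stricter filter the sensors were at -0.09 and the PERK and ATF4 arm at -0.02. Centring on hepatocyte markers adds about 0.32 to every gene, so all 9 medians had to take the other sign and say nothing of stability: 0.11 (ER folding), 0.19 (ERAD), 0.19 (ER entry), 0.26 (ER to Golgi), 0.25 (sensors), 0.14 (PERK and ATF4), 0.18 (other chaperones), 0.19 (secreted proteins) and 0.13 (ERSE). With 1 pool left out the ranges were -0.22 to -0.19, -0.17 to -0.08, -0.20 to -0.11, -0.13 to -0.06, -0.11 to 0.03, -0.17 to -0.13, -0.23 to -0.08, -0.21 to -0.04 and -0.24 to -0.10 in that order. The lone pool is then assumed to vary like the others. Dim genes near the table median may show compressed differences.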
